A study of Mus musculus with 10 samples.

Results

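The 52 genes described here encode the machinery that copies DNA and makes its building blocks, together with 3 regulators of entry into S phase. They were taken from a fixed list of G1/S genes, matched by the symbol in the row names of the deposited table, and all 52 were found among its 20270 genes. All 52 also passed the filter on low values, which left 15143 genes for testing. RNA sequencing was performed on 10 libraries of mouse hematopoietic stem cells (HSCs), the blood-forming stem cells of bone marrow. According to the labels the cells carried either Id1-/- (KO) or Id1+/+ (WT), came from strain C57BL/6, and were sorted by flow cytometry from the marrow of primary recipients given lineage-negative (Lin-) marrow cells of the same genotypes. The groups are WT normal (3 libraries, A to C), KO normal (3), WT stressed (2, A and B) and KO stressed (2). Every group, the controls included, had thus been through transplantation, 4 weeks earlier by the sample labels and 6 weeks by the series design, and what normal and stressed stand for is not explained there. How the Id1 allele was made, whether a library is 1 mouse or a pool, and which cells of the host were left are also not stated, so the spread behind each p-value is that between libraries and may be technical.

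Copying DNA begins in G1, when the origin recognition complex, Cdc6 and Cdt1 load the ring-shaped Mcm helicase onto chromatin. In S phase kinases, Cdc45 and the GINS complex switch that helicase on, and polymerases, clamp and ligase follow it, fed by enzymes that turn ribonucleotides into deoxynucleotides. Many of these genes are targets of E2F transcription factors and are transcribed in waves from late G1 onward. Adult HSCs are known for dividing rarely and for entering the cell cycle after transplantation or other stress.

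The promoters of these genes are known for E2F-type words, so these letters were looked up in RefSeq promoter windows of build GRCm38.p6 (250 bases before to 50 after each start). The table held promoters for 41 of the 52 members (not matched were Ccne2, Dscc1, Gins1, Gins2, Gins4, Gmnn, Mcm4, Pole, Prim2, Rfc2 and Tipin). The word TTTCGCGC or TTTGGCGC, searched on both strands, stood in the window of 11 of the 41 (26.8%), against 251 of 27025 genes in the whole table (0.929%). The 11 were Cdt1, Clspn, Lig1, Mcm3, Mcm5, Mcm6, Mcm7, Orc1, Pola1, Pole2 and Rfc3. In 3 of them the word with 30 bases on each side lay wholly upstream of the start and outside the annotated exons, and those stretches are printed below, 5′ to 3′ on the gene's strand, with the words in capitals, where overlapping words run into 1 block.
Mcm5 (chr8:75109326-75109397, plus strand): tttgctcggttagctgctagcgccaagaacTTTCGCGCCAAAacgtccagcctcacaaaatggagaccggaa
Mcm6, distal (chr1:128359774-128359845, minus strand): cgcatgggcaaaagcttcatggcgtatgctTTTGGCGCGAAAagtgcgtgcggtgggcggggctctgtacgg
Mcm6, proximal (chr1:128359715-128359782, minus strand): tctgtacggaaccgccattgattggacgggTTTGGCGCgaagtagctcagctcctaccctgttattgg
Pola1 (chrX:93632256-93632323, minus strand): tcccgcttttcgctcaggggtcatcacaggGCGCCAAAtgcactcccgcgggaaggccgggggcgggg
The first capital stands 153 bases before the start in Mcm5, 110 and 47 bases before it in Mcm6, and 138 bases before it in Pola1. In Mcm5 and in the distal Mcm6 stretch words of both strands overlap, and in Pola1 the word reads on the opposite strand. For comparison, CCAAT stood in 23 of the 41 windows (56.1%, against 41.1% of all genes) and TTTGAA or TTCGAA, the cell cycle homology word, in 8 (19.5%, against 21.7%). A match is a string of letters and shows no binding.

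Levels are given in CPM, a unit of reads per fixed number of reads, computed as 2 to the power of the deposited log2 value. The deposited values recur between libraries, which points to quantile normalization, so a level need not be a direct share of its library's reads. By the steps between low values, 1 CPM was worth an estimated 25.7 to 33.0 reads in these libraries, an estimate with the same limit. The members lay between 8.17 and 1058 CPM, and none was at the table's lowest value in any library. Per kilobase of exon (GENCODE vM21, build mm10) the most abundant were Mcm6 with 207 CPM per kilobase and Mcm3 with 133 CPM per kilobase, both subunits of the helicase ring. The least abundant on the same scale were Clspn (3.61 CPM per kilobase) and Fen1 (4.54 CPM per kilobase). The 3 members whose exons overlap another gene over more than 50% of their length, Gins2, Fen1 and Chaf1a, have uncertain counts, since the strandedness of the counting is not given in the sources used here. The same holds, to a smaller degree, for Mcm7, Orc1, Rfc2, Rfc4, Rfc5 and Ccne2, which share more than 10%. Another uncertainty holds for Mcm7, Cdc6, Pcna, Rfc5, Rrm2 and Tyms, whose transcripts share a near-identical stretch with another gene (at least 95% identity over 300 bases or more). The longest stretch spans 2157 bases in Mcm7, but only 419 in Rrm2 and 361 in Tyms, whose exonic lengths are 2771 and 6089 bases. For Tyms the match is a stretch of the unrelated gene Vmn1r229 and not a copy of Tyms.

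A few facts of the whole series bear on the results. The estimated depth was 25700000 to 33000000 reads per library. The targeted gene, Id1, stood at 1.35, 1.72 and 3.17 CPM in the WT-labelled normal libraries, 13.2, 10.6 and 9.62 CPM in the KO-labelled normal, 1.28 and 4.39 CPM in the WT-labelled stressed and 9.06 and 8.44 CPM in the KO-labelled stressed libraries. It was therefore higher under the KO label, against what a loss of the transcript would give, so genotypes are called KO-labelled and WT-labelled here and every direction between them follows the labels. All 14 genes of a stem and progenitor cell list, among them Cd34, Cd48 and Flt3, were detected (Kit at 1354 to 1913 CPM). They summed to 4100.5 to 4932 CPM in the normal and 3472 to 3856 CPM in the stressed libraries. The sum joins genes that moved in both directions. In each genotype 1 was higher and 5 lower in stressed HSCs (adjusted p under 0.05, limma). Of all 15143 genes tested, 235 were higher and 265 lower in WT-labelled HSCs, and 337 and 345 in KO-labelled HSCs. Megakaryocyte markers (7 of 7 in the table) summed to 858 to 1012 CPM in the normal and 1433 to 1519 CPM in the stressed libraries. Granulocyte and monocyte markers (13 of 13) summed to 95.9 to 105 CPM under the WT label and 117 to 141 CPM under the KO label. B and plasma cell markers (10 of 12) summed to 42.0 to 56.1 CPM, except for 316 and 332 CPM in the KO-labelled stressed libraries. T and NK cell markers (3 of 7) summed to 55.0 to 66.4 CPM in the normal and 95.6 to 119 CPM in the stressed libraries, 1.94-fold (WT) and 1.54-fold (KO) higher by group means. Nearly all of that sum was Nkg7 (52.2 to 118 CPM), while the T cell receptor gene Trbc2 was at the table's lowest value in 7 of the 10 libraries. Erythroid markers (12 of 12) summed to 1736 to 1838 CPM in the normal and 1654 to 1694 CPM in the stressed libraries. The part of these cells in the results was not tested. On the principal components of all genes, KO-labelled normal library A and both WT-labelled stressed libraries stood apart (A on the second, B on the fourth component), and the counts of members are given with and without them.

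Most of the replication genes were higher in stressed than in normal HSCs of both genotypes, by modest amounts. In WT-labelled HSCs the difference was positive in 48 of the 52 members (51.1% of all genes tested), and 7 rose past the threshold, an adjusted p under 0.05 (limma, Benjamini-Hochberg over all genes tested), where 1.55% of all genes did. In KO-labelled HSCs the difference was positive in 50 of the 52 (50.1% of all genes), and 13 rose past the threshold, where 2.23% of all genes did. No member fell past it in either genotype, and at an unadjusted p under 0.05 none was lower (8.84% of all genes in WT-labelled and 9.48% in KO-labelled HSCs), while 22 were higher in WT-labelled (7.98% of all genes) and 33 in KO-labelled HSCs (8.41%). The median log2 difference of the members was 0.26 in WT-labelled and 0.33 in KO-labelled HSCs, beside 0.01 and 0.00 over all genes tested. In bulk RNA a larger share of cells in S phase and more of these transcripts per cell cannot be told apart.

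The summed level of the 52 genes showed the same order. It was 7269, 7278 and 7063 CPM in the WT-labelled normal libraries and 7210.2, 6867 and 6990.3 CPM in the KO-labelled normal libraries. It was 8193 and 8260.2 CPM in the WT-labelled stressed libraries and 8744 and 8579.8 CPM in the KO-labelled stressed libraries. No stressed library overlapped a normal one, and the group means were 1.14-fold (WT) and 1.23-fold (KO) higher under stress. For comparison, 14 mitosis markers (Mki67, Top2a and others) summed to 816 to 933 CPM in the normal and 1582 to 1757.5 CPM in the stressed libraries, with group means 1.91-fold (WT) and 1.98-fold (KO) higher under stress. Of those 14, 13 rose past the threshold in WT-labelled and 14 in KO-labelled HSCs, with median log2 differences of 1.03 and 1.09.

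Gene by gene, the stressed libraries of WT-labelled HSCs all lay above the normal ones in 32 members, where 19.7% of all genes tested did so. In KO-labelled HSCs this was so for 38 members, where 16.5% of all genes did, and 1 member (Rfc3) had all its stressed libraries below the normal ones, where 16.6% of all genes did. In WT-labelled HSCs 0 members lay wholly below, beside 16.7% of all genes. All 4 stressed libraries stood above all 6 normal ones in 18 members, beside 4.44% of all genes. These 18 were Mcm7, Gins2, Cdc45, Rfc2, Rfc5, Pola1, Pole, Rpa1, Fen1, Lig1, Rrm1, Rrm2, Tk1, Tyms, Dut, Clspn, Chaf1b and E2f1, so each of the roles but origin licensing was represented. The mean was highest in the KO-labelled stressed group for 42 members, in the WT-labelled stressed group for 8 and in the KO-labelled normal group for 2. It was lowest in the WT-labelled normal group for 28 members and in the KO-labelled normal group for 23.

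**Figure D1:**
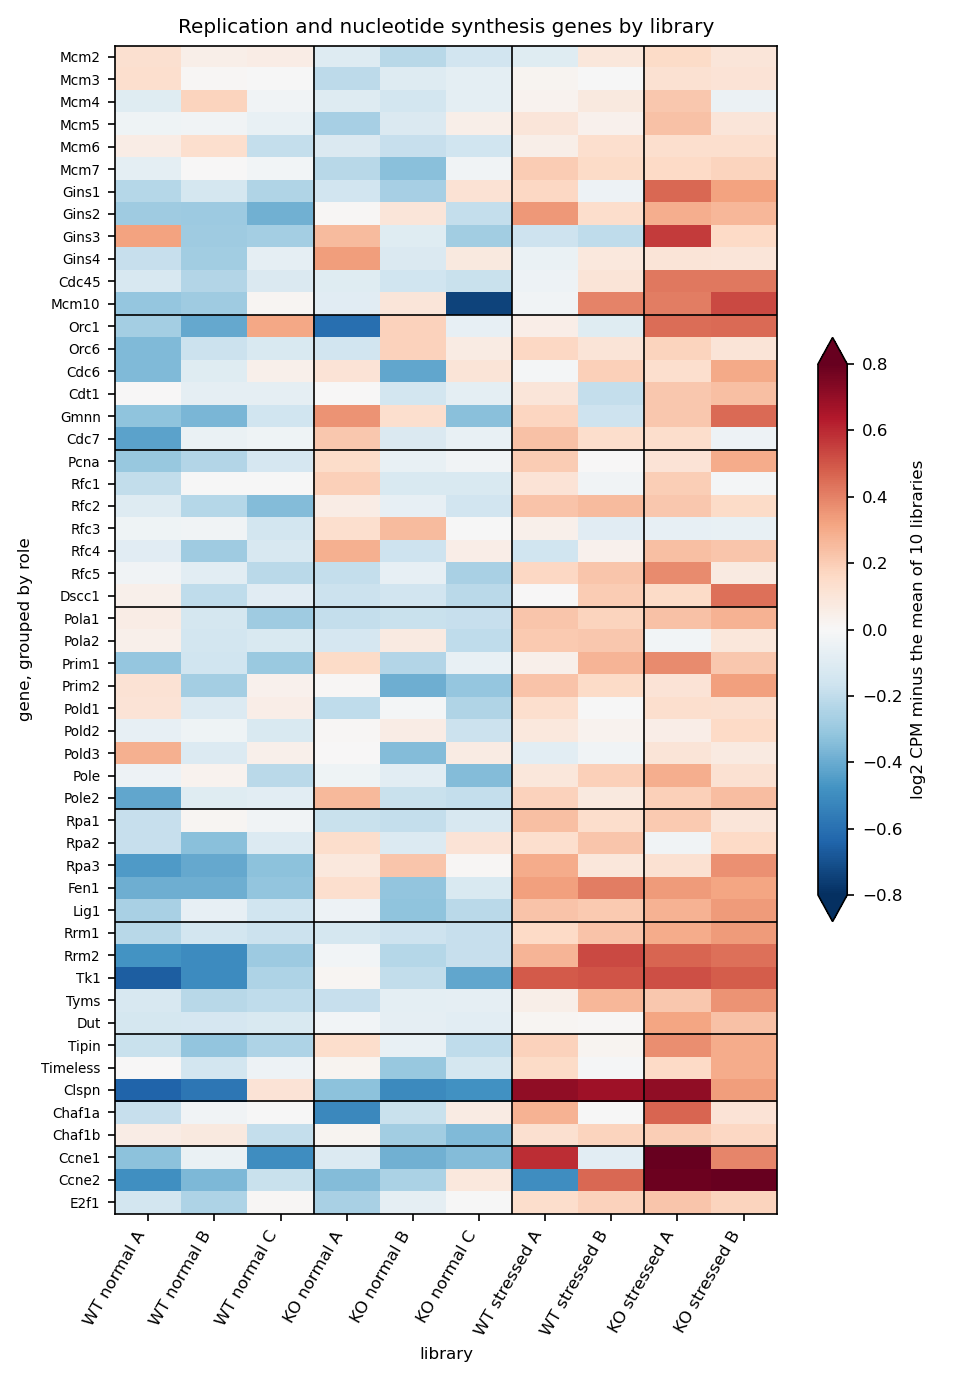
Log2 level of each of the 52 genes (rows, ordered by role) in each of the 10 libraries (columns), drawn as the deviation from that gene's mean over the 10 libraries. The stressed libraries on the right are above the gene's mean in most rows, and the helicase rows Mcm2 to Mcm7 have their lowest group mean in the KO-labelled normal libraries.

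The heat map of all members shows the same contrast by library. The median deviation of the 52 members from each gene's mean was -0.16, -0.14 and -0.12 (log2) in the WT-labelled normal libraries and -0.03, -0.15 and -0.14 in the KO-labelled normal libraries. It was 0.14 and 0.12 in the WT-labelled stressed and 0.22 and 0.23 in the KO-labelled stressed libraries. KO-labelled normal library A, one of the libraries that stood apart, was thus the highest of the normal libraries. Without it and WT-labelled stressed library A, 4 members rose past the threshold in WT-labelled and 9 in KO-labelled HSCs, and the medians were 0.26 and 0.36. The counts rested on single libraries more than the medians did. With either WT-labelled stressed library left out 3 members rose past the threshold, and 4 did without WT-labelled normal library B. In KO-labelled HSCs 1 member did without stressed library A, 2 without stressed library B, 8 without normal library B and 7 without normal library C. The medians stayed between 0.24 and 0.27 (WT) and between 0.29 and 0.36 (KO).

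Of the enzymes that supply deoxynucleotides, all 5 rose in KO-labelled HSCs and 3 of 5 rose in WT-labelled HSCs, and their summed level was 1.37-fold (WT) and 1.40-fold (KO) higher under stress. The contrast of 5 and 3 was not firm. Of 22 alternatives of the processing, the KO calls were lost in 13 for Dut, 12 for Tyms, 6 for Tk1, 3 for Rrm2 and 0 for Rrm1. The WT calls were lost in 1 for Rrm1 and in 0 for Rrm2 and Tk1. Rrm1, the large subunit of ribonucleotide reductase (chromosome 7, 102441695 to 102469771, mm10), stood at 292, 308 and 302 CPM (WT-labelled) and 309, 303 and 299 CPM (KO-labelled) in the normal libraries, and at 380.4 and 398 CPM (WT-labelled) and 418 and 431 CPM (KO-labelled) in the stressed libraries. The stressed libraries lay above every normal one, and the normal groups overlapped. Rrm1 rose by 0.37 (log2, SE 0.052, adjusted p = 0.0029, limma) in WT-labelled and 0.48 (SE 0.052, adjusted p = 0.00043) in KO-labelled HSCs.

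Rrm2, the small subunit that limits the activity of the reductase in S phase (chromosome 12, 24708241 to 24714146), stood at 73.2, 71.9 and 83.6 CPM (WT-labelled) and 100.5, 87.1 and 90.0 CPM (KO-labelled) in the normal libraries, and at 123 and 147 CPM (WT-labelled) and 141 and 139 CPM (KO-labelled) in the stressed libraries. Again the conditions did not overlap, and the KO-labelled normal libraries were all above the WT-labelled normal ones. It rose by 0.83 (SE 0.11, adjusted p = 0.0023, limma) in WT-labelled and 0.60 (SE 0.11, adjusted p = 0.01) in KO-labelled HSCs. Tk1, the thymidine kinase of the salvage pathway (chromosome 11, 117815526 to 117826092), stood at 43.7, 48.6 and 58.1 CPM (WT-labelled) and 69.7, 60.2 and 51.7 CPM (KO-labelled) in the normal libraries, and at 96.7 and 97.9 CPM (WT-labelled) and 98.6 and 96.6 CPM (KO-labelled) in the stressed libraries. The 4 stressed libraries of Tk1 lay within 2 CPM of each other, while the normal ones were spread. Tk1 rose by 0.97 (SE 0.15, adjusted p = 0.0045, limma) in WT-labelled and 0.70 (SE 0.15, adjusted p = 0.02) in KO-labelled HSCs, or 1.95-fold and 1.62-fold.

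Tyms, which makes thymidylate from deoxyuridylate, stood at 97.1, 91.0 and 92.3 CPM (WT-labelled) and 93.4, 101 and 101 CPM (KO-labelled) in the normal libraries, and at 109.6 and 128 CPM (WT-labelled) and 124 and 136 CPM (KO-labelled) in the stressed libraries. Its stressed libraries were all higher than its normal ones, and it rose in KO-labelled HSCs (log2 difference 0.40, SE 0.096, adjusted p = 0.039, limma), with 0.34 (adjusted p = 0.088) in WT-labelled HSCs. Dut, which removes dUTP and yields the substrate of Tyms, stood at 94.2, 94.5 and 95.5 CPM (WT-labelled) and 103, 98.8 and 98.1 CPM (KO-labelled) in the normal libraries, and at 105 and 105 CPM (WT-labelled) and 129 and 122 CPM (KO-labelled) in the stressed libraries. The WT-labelled stressed libraries were barely above the highest normal library, and the KO-labelled stressed ones were clearly higher. Dut rose in KO-labelled HSCs (log2 difference 0.33, SE 0.079, adjusted p = 0.037, limma) and had a difference of 0.15 (adjusted p = 0.38) in WT-labelled HSCs. The difference between the genotypes' changes was not past the threshold for any of the 5 enzymes (smallest adjusted p = 0.64).

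**Figure D2:**
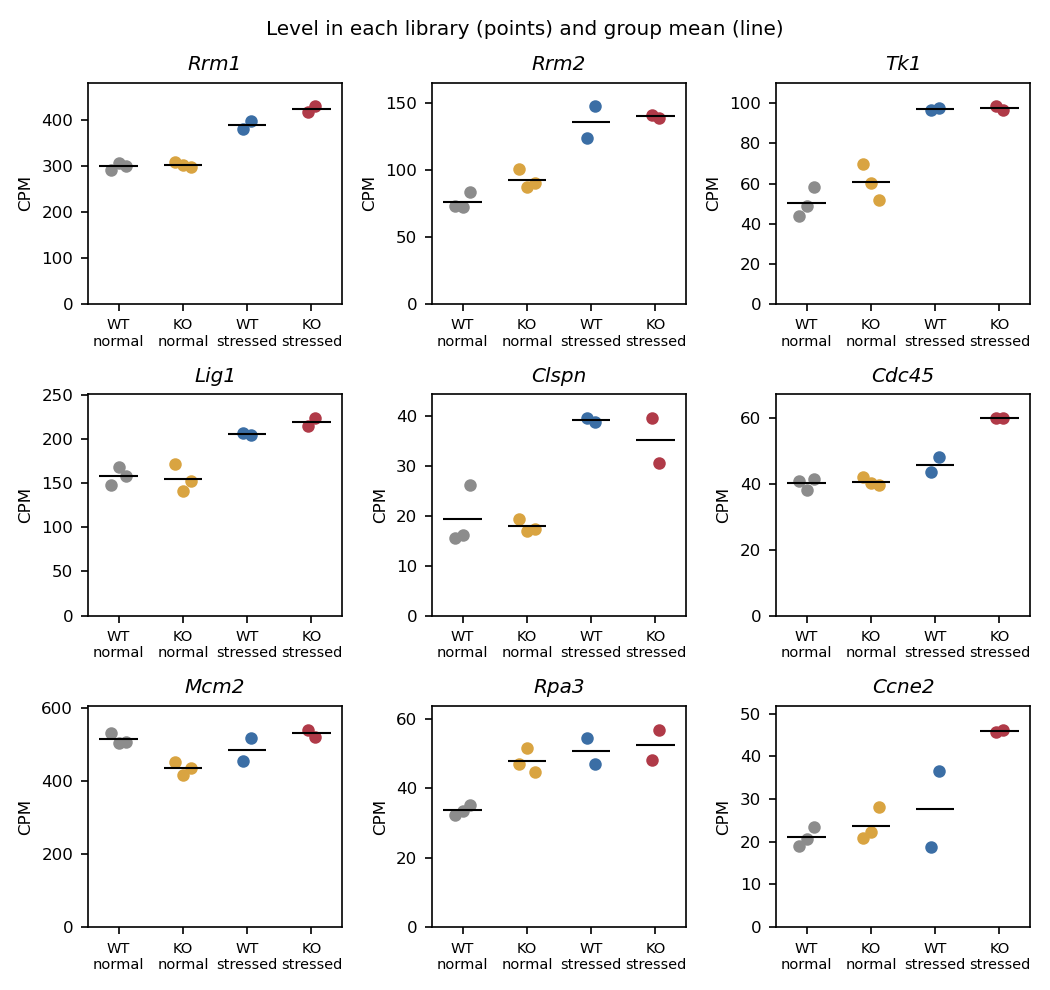
Level in CPM (vertical axes, from 0) of 9 members in each library (points, libraries A to C from left to right) of the 4 groups, with the group mean as a line. Rrm1, Rrm2, Tk1, Lig1 and Clspn separate the conditions in both genotypes, Cdc45 and Ccne2 are highest in the KO-labelled stressed libraries, Mcm2 is lowest and Rpa3 raised in the KO-labelled normal libraries.

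The replicative helicase, an Mcm2 to Mcm7 ring joined by Cdc45 and the GINS proteins, had 12 members in the set. In KO-labelled HSCs 4 of them rose, with a median log2 difference of 0.30 and a highest of 0.71. In WT-labelled HSCs 0 of 12 passed the threshold (2 at an unadjusted p under 0.05, limma), with a median of 0.15 and a range of -0.11 to 0.56. The contrast of 4 and 0 was not firm. Of 22 alternatives, the KO calls were lost in 7 for Mcm2, 7 for Mcm3, 5 for Mcm7 and 4 for Cdc45. With only the libraries compared in the fit none of these 4 passed, while Mcm6 did. Cdc45, which bridges ring and GINS (chromosome 16, 18780447 to 18811987), stood at 41.1, 38.2 and 41.4 CPM (WT-labelled) and 42.0, 40.2 and 39.6 CPM (KO-labelled) in the normal libraries, and at 43.7 and 48.1 CPM (WT-labelled) and 60.1 and 60.1 CPM (KO-labelled) in the stressed libraries. The KO-labelled stressed libraries were well above all others, and the WT-labelled stressed ones just above the normal range. Cdc45 rose in KO-labelled HSCs (log2 difference 0.57, SE 0.11, adjusted p = 0.016, limma), against 0.19 (adjusted p = 0.44) in WT-labelled HSCs.

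Among the ring subunits Mcm7 (chromosome 5, 138164583 to 138172422) stood at 407, 430.3 and 424 CPM (WT-labelled) and 368, 341 and 422 CPM (KO-labelled) in the normal libraries, and at 494 and 479 CPM (WT-labelled) and 480.0 and 486 CPM (KO-labelled) in the stressed libraries. All its stressed libraries were above its normal ones, and it rose in KO-labelled HSCs (log2 difference 0.36, SE 0.076, adjusted p = 0.02, limma) with 0.21 (adjusted p = 0.17) in WT-labelled HSCs. Mcm2 (chromosome 6, 88883474 to 88898780) stood at 532, 503 and 506 CPM (WT-labelled) and 453, 417 and 437 CPM (KO-labelled) in the normal libraries, and at 455 and 518 CPM (WT-labelled) and 541 and 520.2 CPM (KO-labelled) in the stressed libraries. Here the low group was KO-labelled normal, and WT-labelled normal and both stressed groups overlapped. Mcm2 rose in KO-labelled HSCs (log2 difference 0.28, SE 0.062, adjusted p = 0.026, limma) and had a difference of -0.08 (adjusted p = 0.56) in WT-labelled HSCs. Mcm3 (chromosome 1, 20802968 to 20820312) stood at 545, 499.9 and 497 CPM (WT-labelled) and 430.3, 463 and 471 CPM (KO-labelled) in the normal libraries, and at 505 and 497 CPM (WT-labelled) and 542 and 536 CPM (KO-labelled) in the stressed libraries, with KO-labelled normal again the lowest group. It rose in KO-labelled HSCs (log2 difference 0.25, SE 0.056, adjusted p = 0.031, limma), with -0.04 (adjusted p = 0.8) in WT-labelled HSCs.

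Mcm6, the most abundant member per kilobase of exon, stood at 1003, 1058 and 844 CPM (WT-labelled) and 888, 848 and 864 CPM (KO-labelled) in the normal libraries, and at 994 and 1058 CPM (WT-labelled) and 1058 and 1058 CPM (KO-labelled) in the stressed libraries. Equal values can arise under quantile normalization, which gives genes of equal rank 1 common value and to which the recurring deposited values point. The origin of the equal values was not tested. Its difference of 0.29 in KO-labelled HSCs missed the threshold (adjusted p = 0.057, limma). Summed over Mcm2 to Mcm7, a subset singled out after its values were seen, the level was 3155, 3222 and 2947 CPM in the WT-labelled normal libraries and 2750.4, 2706 and 2886 CPM in the KO-labelled normal libraries. It was 3179 and 3276 CPM in the WT-labelled stressed and 3436 and 3315 CPM in the KO-labelled stressed libraries. The KO-labelled normal libraries were the lowest of the 10 on this sum. The GINS genes summed to 119 to 162 CPM in the normal and 145 to 173 CPM in the stressed libraries, and none of the 4 passed the threshold in either genotype.

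Single-strand binding and Okazaki fragment joining had 2 of 5 members past the threshold in each genotype, and all 5 differences were positive in both. Lig1, the ligase that seals the lagging strand (chromosome 7, 13277283 to 13311433), stood at 148, 169 and 158 CPM (WT-labelled) and 172, 141 and 152 CPM (KO-labelled) in the normal libraries, and at 206 and 204 CPM (WT-labelled) and 214 and 224 CPM (KO-labelled) in the stressed libraries. The conditions did not overlap in either genotype. Lig1 rose in WT-labelled (log2 difference 0.38, SE 0.091, adjusted p = 0.047, limma) and in KO-labelled HSCs (log2 difference 0.50, SE 0.091, adjusted p = 0.0094). Its WT call was lost in 13 of 22 alternatives and its KO call in 4. Rpa1, the large subunit of the single-strand binding protein RPA (chromosome 11, 75298166 to 75348324), stood at 169, 194 and 188 CPM (WT-labelled) and 169.7, 168 and 175 CPM (KO-labelled) in the normal libraries, and at 227 and 212 CPM (WT-labelled) and 222 and 206 CPM (KO-labelled) in the stressed libraries. Every stressed library was higher than every normal one, with a rise past the threshold in KO-labelled HSCs (log2 difference 0.32, SE 0.078, adjusted p = 0.043, limma) and a difference of 0.26 (adjusted p = 0.11) in WT-labelled HSCs. The KO call of Rpa1 was lost in 14 of 22 alternatives.

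Rpa3, the small subunit of RPA (chromosome 6, 8255936 to 8259173), stood at 32.3, 33.4 and 35.2 CPM (WT-labelled) and 47.0, 51.7 and 44.6 CPM (KO-labelled) in the normal libraries, and at 54.4 and 47.1 CPM (WT-labelled) and 48.2 and 56.9 CPM (KO-labelled) in the stressed libraries. The WT-labelled normal libraries were the only low ones, and the KO-labelled normal libraries lay in or just below the range of the stressed ones. Rpa3 accordingly rose in WT-labelled HSCs (log2 difference 0.59, SE 0.13, adjusted p = 0.034, limma), with 0.13 (adjusted p = 0.67) in KO-labelled HSCs. Fen1, the flap endonuclease, had differences of 0.74 (WT, adjusted p = 0.085) and 0.43 (KO, adjusted p = 0.3), and 84.2% of its exonic length is shared with other genes.

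The sliding clamp Pcna and its loaders had 1 of 7 members past the threshold in WT-labelled and 0 of 7 in KO-labelled HSCs (limma, 3 at an unadjusted p under 0.05 in each). Rfc2, a subunit of the clamp loader RFC (chromosome 5, 134581366 to 134601805), stood at 275, 252 and 232 CPM (WT-labelled) and 308, 282 and 266 CPM (KO-labelled) in the normal libraries, and at 346 and 351 CPM (WT-labelled) and 342 and 328 CPM (KO-labelled) in the stressed libraries. Its 4 stressed libraries were the highest, and it rose in WT-labelled HSCs (log2 difference 0.47, SE 0.081, adjusted p = 0.0099, limma) with 0.24 (adjusted p = 0.14) in KO-labelled HSCs. Pcna stood at 164, 172 and 184 CPM (WT-labelled) and 224, 194 and 199 CPM (KO-labelled) in the normal libraries, and at 234 and 203 CPM (WT-labelled) and 219 and 249 CPM (KO-labelled) in the stressed libraries. KO-labelled normal library A of Pcna lay inside the stressed range, and neither change passed the threshold (adjusted p = 0.095 in WT-labelled and 0.34 in KO-labelled HSCs, limma). The 7 differences spanned 0.05 to 0.47 (WT) and -0.19 to 0.48 (KO). The lowest was that of Rfc3, with 74.2, 80.8 and 67.5 CPM in the KO-labelled normal and 64.7 and 65.0 CPM in the KO-labelled stressed libraries, a difference of -0.19 that missed the threshold (adjusted p = 0.41, limma).

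Of the 9 polymerase and primase genes, all 9 differences were positive in KO-labelled and 8 in WT-labelled HSCs. Pola1, the catalytic subunit of the priming polymerase alpha (chromosome X, 93304767 to 93632155), whose upstream word is printed above, stood at 144, 126 and 113 CPM (WT-labelled) and 121, 122 and 121 CPM (KO-labelled) in the normal libraries, and at 161 and 156 CPM (WT-labelled) and 163 and 168 CPM (KO-labelled) in the stressed libraries. Its stressed libraries were all above its normal ones, and it rose in KO-labelled HSCs (log2 difference 0.44, SE 0.096, adjusted p = 0.026, limma) with 0.32 (adjusted p = 0.11) in WT-labelled HSCs. Pold1, the catalytic subunit of the lagging-strand polymerase delta, ranged from 211 to 270 CPM in the normal and from 249 to 275 CPM in the stressed libraries. Those ranges overlapped. Among the 9, the log2 differences spanned -0.13 to 0.41 in WT-labelled and 0.12 to 0.45 in KO-labelled HSCs.

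Fork protection is the task of Timeless, Tipin and Clspn when the helicase and polymerases stall. This role held the largest log2 difference of the 52 in WT-labelled HSCs. In KO-labelled HSCs its largest difference, that of Clspn (0.964), was nearly equal to that of the cyclin Ccne2 (0.963). Clspn, the adaptor that passes the stall signal to the checkpoint kinase Chk1 (chromosome 4, 126556935 to 126593903), stood at 15.5, 16.2 and 26.1 CPM (WT-labelled) and 19.2, 17.0 and 17.3 CPM (KO-labelled) in the normal libraries, and at 39.5 and 38.7 CPM (WT-labelled) and 39.5 and 30.5 CPM (KO-labelled) in the stressed libraries. The stressed libraries were all higher, WT-labelled normal library C was well above the other normal ones, and KO-labelled stressed library B was the lowest of the stressed ones. Clspn rose in WT-labelled (log2 difference 1.07, SE 0.22, adjusted p = 0.027, limma) and in KO-labelled HSCs (log2 difference 0.96, SE 0.22, adjusted p = 0.034), or 2.09-fold and 1.95-fold. Tipin, the partner of Timeless, stood at 98.5, 89.5 and 93.9 CPM (WT-labelled) and 123, 107 and 96.8 CPM (KO-labelled) in the normal libraries, and at 127 and 113 CPM (WT-labelled) and 144 and 137 CPM (KO-labelled) in the stressed libraries. KO-labelled normal library A of Tipin lay within the stressed range, and the change missed the threshold in both genotypes (adjusted p = 0.12 and 0.082, limma).

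Origin licensing and firing had 0 of 6 members past the threshold in either genotype (limma, 2 at an unadjusted p under 0.05 in each). Cdt1, the loader of the Mcm ring, stood at 95.3, 90.4 and 90.6 CPM (WT-labelled) and 95.4, 85.8 and 90.3 CPM (KO-labelled) in the normal libraries, and at 102 and 83.5 CPM (WT-labelled) and 111 and 112 CPM (KO-labelled) in the stressed libraries. Only the KO-labelled stressed libraries were above the normal range in both libraries. The differences of Cdt1 were 0.00 (adjusted p = 1) in WT-labelled and 0.30 (adjusted p = 0.14) in KO-labelled HSCs (limma). The 6 genes, which include Gmnn, the inhibitor of Cdt1, and the origin recognition subunits Orc1 and Orc6, spanned 0.00 to 0.36 (WT) and 0.03 to 0.61 (KO).

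The chromatin assembly pair, Chaf1a and Chaf1b, which load new histones behind the fork, did not pass the threshold in either genotype (limma, 0 in WT-labelled and 2 in KO-labelled HSCs at an unadjusted p under 0.05). Chaf1b stood at 163, 166 and 137 CPM (WT-labelled) and 159, 129.5 and 123 CPM (KO-labelled) in the normal libraries, and at 172 and 177 CPM (WT-labelled) and 180.0 and 176 CPM (KO-labelled) in the stressed libraries, with the stressed libraries all above the normal ones. Its differences were 0.17 and 0.38.

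Among the regulators of S phase entry, E2f1 (chromosome 2, 154559407 to 154569892), the activator that drives many of these promoters, stood at 69.7, 65.0 and 77.5 CPM (WT-labelled) and 64.4, 73.5 and 76.9 CPM (KO-labelled) in the normal libraries, and at 84.8 and 87.6 CPM (WT-labelled) and 89.8 and 87.1 CPM (KO-labelled) in the stressed libraries. Its stressed libraries were all higher, by 0.29 (adjusted p = 0.21) and 0.31 (adjusted p = 0.17, limma), so neither passed the threshold. Ccne2, a cyclin that activates Cdk2 (chromosome 4, 11191351 to 11204779), stood at 18.9, 20.7 and 23.4 CPM (WT-labelled) and 20.9, 22.3 and 28.1 CPM (KO-labelled) in the normal libraries, and at 18.8 and 36.5 CPM (WT-labelled) and 45.6 and 46.3 CPM (KO-labelled) in the stressed libraries. WT-labelled stressed library A was at the level of the normal libraries while library B was higher, and both KO-labelled stressed libraries were the highest of the 10. Ccne2 missed the threshold in KO-labelled HSCs (log2 difference 0.96, SE 0.25, adjusted p = 0.054, limma), as did Ccne1 (difference 0.89, adjusted p = 0.077), whose levels were 12.7, 10.5 and 10.8 CPM in the KO-labelled normal and 24.3 and 18.0 CPM in the KO-labelled stressed libraries.

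The 2 comparisons of conditions share no library, but both use the spread that limma estimated for each gene over all 10 libraries. Their calls are therefore not independent. Of the 7 members that rose in WT-labelled HSCs 5 also rose in KO-labelled HSCs (Lig1, Rrm1, Rrm2, Tk1 and Clspn), which is 71.4% of the first list and 38.5% of the second, and 0.938% of all genes rose in both. Among these 5, the WT call of Lig1 was lost in 13 of 22 alternatives. The calls of Clspn were lost in 7 (WT) and 9 (KO). With only the libraries compared in each fit, Rrm1 and Rrm2 alone rose in both genotypes. Across the 52 genes the 2 sets of differences had a Pearson r of 0.459 and a Spearman rho of 0.311, given as a description, since genes are not independent replicates and all values passed through 1 normalization. The difference was positive in both genotypes for 46 members. Mcm2, Mcm3, Gins3 and Pold3 were negative in WT-labelled HSCs, and Gins4 and Rfc3 in KO-labelled HSCs.

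**Figure D3:**
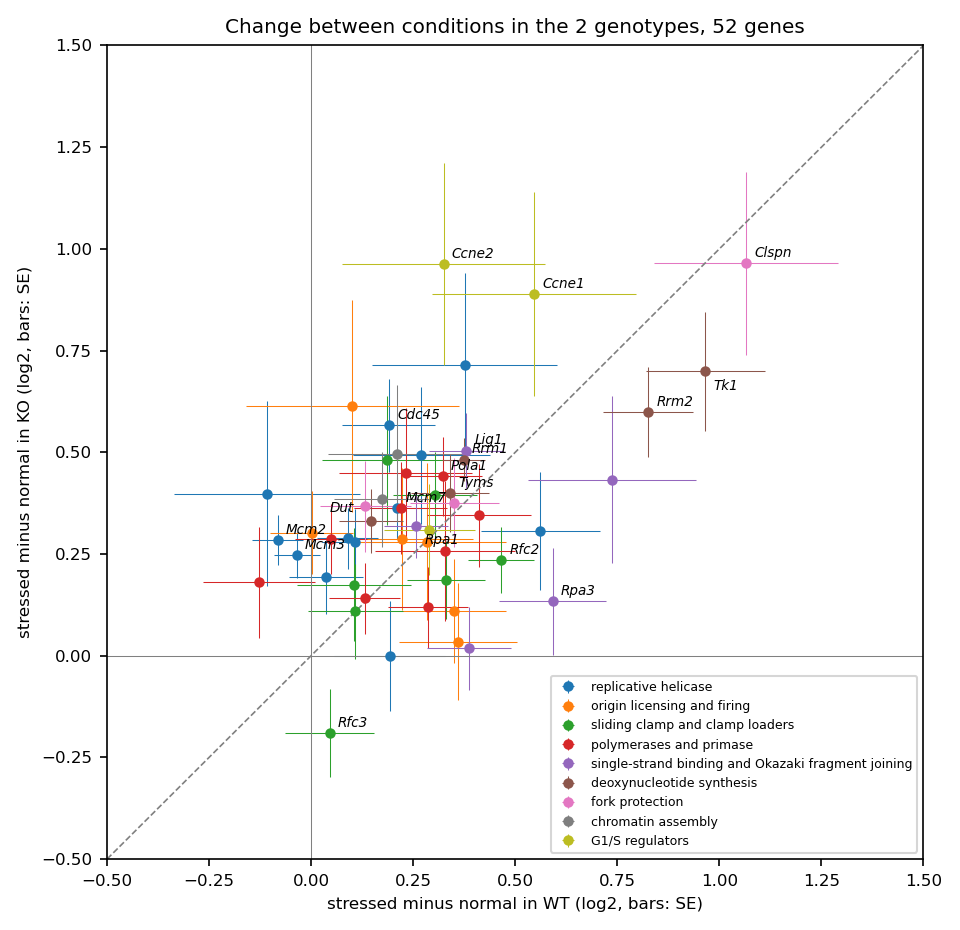
Log2 difference between stressed and normal HSCs in WT-labelled (horizontal axis) and KO-labelled libraries (vertical axis) for the 52 genes, coloured by role, with limma standard errors as bars and a dashed line of equal change. Clspn, Tk1 and Rrm2 lie far to the right on or below the line, Ccne1, Ccne2 and Cdc45 lie above it, and nearly all genes are above 0 on both axes.

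The test of the difference between those changes, the interaction of genotype and condition, called no member (limma, adjusted p under 0.05, where 0.0198% of all genes passed). At an unadjusted p under 0.05, 3 members were positive, that is with the larger rise in KO-labelled HSCs (4.49% of all genes), and 2 were negative (4.66%). The 3 were Mcm2 (log2 0.37, SE 0.088, adjusted p = 0.23), Mcm3 (0.28, SE 0.08, adjusted p = 0.31) and Cdc45 (0.38, SE 0.16, adjusted p = 0.51). The 2 were Rpa2 (-0.37, SE 0.15, adjusted p = 0.48) and Rpa3 (-0.46, SE 0.19, adjusted p = 0.5), and Cdt1 had 0.30 (adjusted p = 0.56). The median over the 52 was 0.10, beside 0.00 over all genes tested, so a difference between the genotypes' changes was not detected for any single member.

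Under normal conditions no member differed between KO-labelled and WT-labelled HSCs past the threshold (limma), where 1.56% of all genes did. At an unadjusted p under 0.05, 7 members were higher under the KO label (7.49% of all genes) and 5 lower (6.39%). The KO-labelled libraries lay wholly above the WT-labelled ones in 8 members (10.9% of all genes) and wholly below in 2 (8.64%), and the median log2 difference was 0.02, beside -0.01 over all genes.

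The 2 members wholly below were Mcm2 (values above, log2 difference -0.24, SE 0.056, adjusted p = 0.065) and Mcm3 (-0.18, SE 0.05, adjusted p = 0.13). All 6 ring subunits had a negative difference, from -0.07 (Mcm5) to that of Mcm2, and in the other 4 the genotypes overlapped. Mcm2 passed the threshold when either WT-labelled stressed library, or KO-labelled normal library A together with WT-labelled stressed library A, was left out (adjusted p = 0.042, 0.043 and 0.032, limma). Without WT-labelled normal library C the 1 member past it was Mcm6 (log2 difference -0.25, adjusted p = 0.029), against -0.15 (adjusted p = 0.34) with all libraries. The largest positive difference was that of Rpa3 (0.51, SE 0.12, adjusted p = 0.064), followed in p by Pcna (0.24, adjusted p = 0.22), Rrm2 (0.28, adjusted p = 0.23) and Rpa2 (0.26, adjusted p = 0.24). Rpa2, the middle subunit of RPA, stood at 137, 123 and 145 CPM in the WT-labelled and 172, 145 and 168 CPM in the KO-labelled normal libraries, which did not overlap.

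Across the members, this pattern went with exonic length, the union of all annotated exons of a gene. The log2 exonic length of the 52 had a Pearson r of -0.611 and a Spearman rho of -0.588 with the KO-labelled minus WT-labelled difference in normal HSCs. Short members such as Rpa3 (1136 bases) thus tended to be higher and long ones lower. Of the ring subunits, all lower, Mcm2 has 6956 bases, but Mcm3, Mcm4 and Mcm5 have 3752, 3589 and 3993, in a range of 1136 to 11160. Over 15109 genes with a length the values were -0.103 and -0.21. For the changes between conditions over the same genes they were -0.105 and -0.196 in WT-labelled and -0.0209 and -0.000939 in KO-labelled HSCs. Over the 52 members r was -0.003 (WT) and 0.238 (KO) for those changes. The mean log2 level of the 52 members had a Pearson r of -0.408 and a Spearman rho of -0.413 with the same genotype difference. With the changes between conditions its r was -0.37 (WT) and -0.387 (KO), and the part of level was not tested. These are descriptions across genes, which are not independent replicates. With the trend over length removed from every library, a step chosen after seeing the data, the Rpa3 difference in normal HSCs was 0.35 (adjusted p = 0.27, limma), its rise between conditions in WT-labelled HSCs missed the threshold (0.43, adjusted p = 0.12), and 6 members rose in WT-labelled and 13 in KO-labelled HSCs. The part of length in the genotype differences was otherwise not tested.

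**Figure D4:**
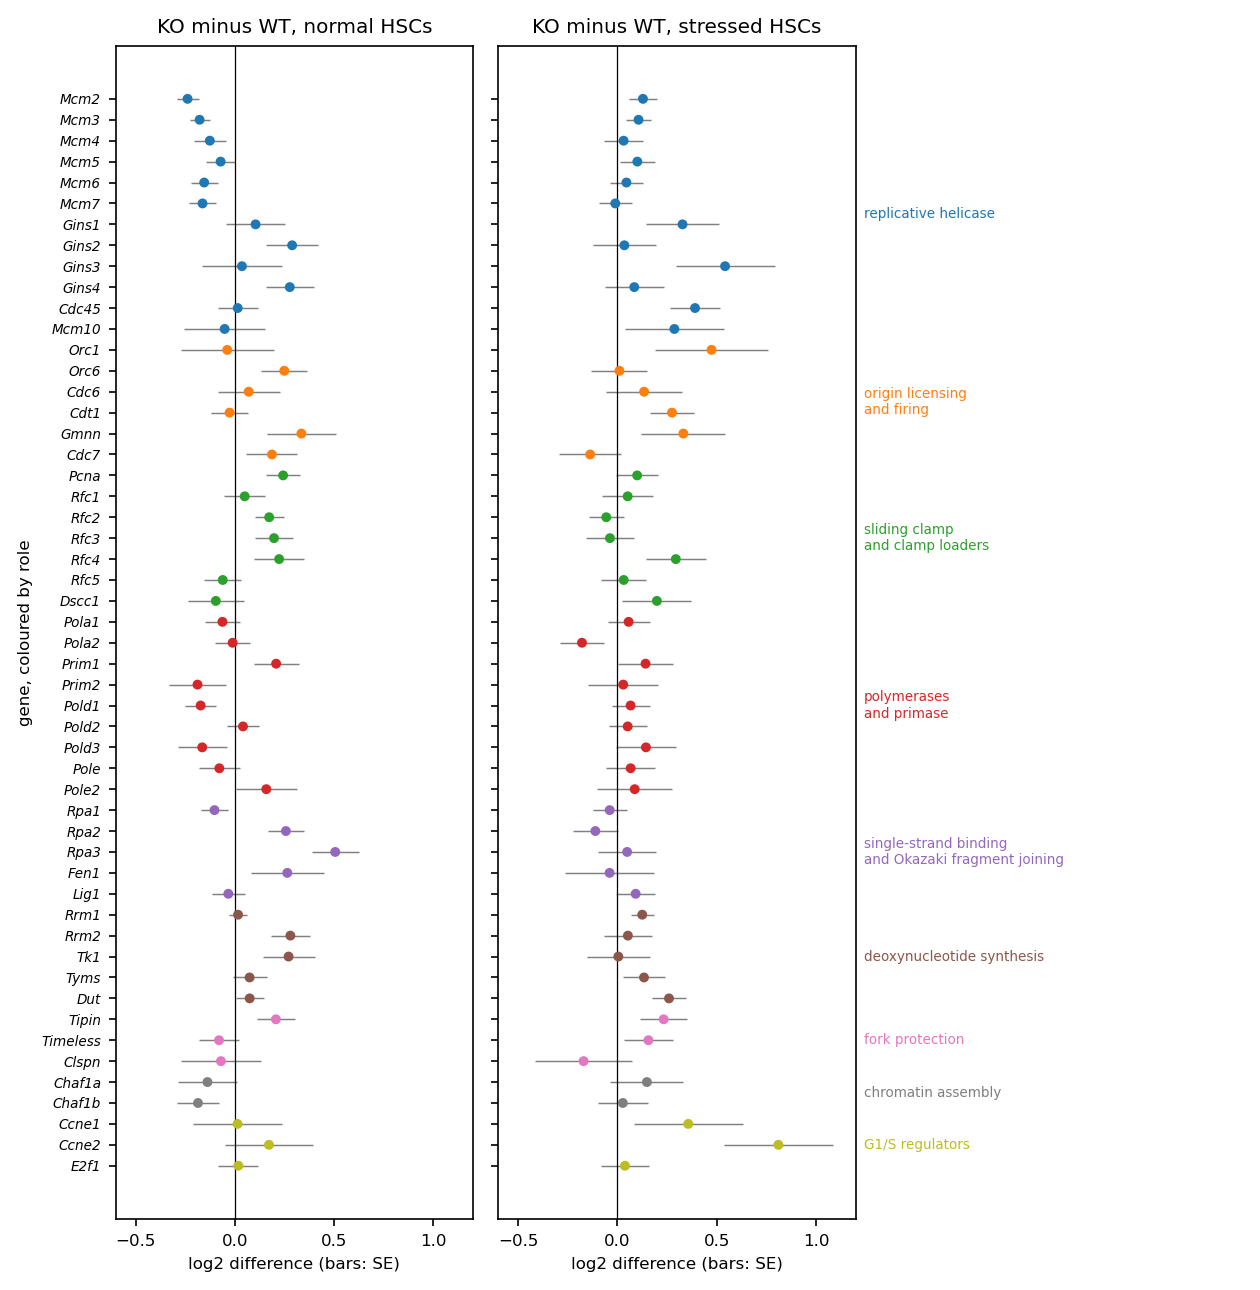
Log2 difference between KO-labelled and WT-labelled HSCs for each of the 52 genes (rows, coloured by role), under normal (left) and stressed (right) conditions, with limma standard errors as bars and a line at 0. On the left Mcm2 to Mcm7 lie below 0 and Rpa3 farthest above it, and on the right most points lie above 0, with Ccne2 the largest (0.33 without WT-labelled stressed library A).

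In stressed HSCs no member differed between the genotype labels past the threshold either (limma, where 0.145% of all genes did). At an unadjusted p under 0.05, 4 were higher under the KO label (4.41% of all genes) and 0 lower (4.46%). The difference was positive in 43 members, with a median of 0.09 beside 0 over all genes. The 2 KO-labelled libraries both lay above the 2 WT-labelled ones in 20 members (19.2% of all genes) and below in 2 (19.9%).

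The smallest p values belonged to Cdc45 (log2 difference 0.39, SE 0.12, adjusted p = 0.39, limma), Dut (log2 difference 0.26, SE 0.086, adjusted p = 0.41), Ccne2 (log2 difference 0.81, SE 0.27, adjusted p = 0.41) and Cdt1 (log2 difference 0.27, SE 0.11, adjusted p = 0.52). The last pair rested on single libraries. The difference of Ccne2 was 0.33 when WT-labelled stressed library A was left out and 1.29 when B was, and that of Cdt1 was 0.42 and 0.13 in the same order. Rrm1 had 0.12 (adjusted p = 0.56) and Gins3, a GINS subunit, 0.54 (adjusted p = 0.56). Gins3 stood at 23.3 and 22.7 CPM in the WT-labelled and 38.5 and 29.1 CPM in the KO-labelled stressed libraries, but also reached 32.7, 21.5 and 21.7 CPM in the WT-labelled normal ones, so its spread between libraries was wide. The comparisons of genotypes share libraries with the comparisons of conditions, and their values are therefore given side by side only. E2f1 and Gins1 lie 1821997 and 1804971 bases from Id1 on chromosome 2. Their genotype differences were 0.02 and 0.10 in normal and 0.04 and 0.33 in stressed HSCs, none past the threshold.

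Other genes of the same pathways were examined as lists with the described members left out. Beside their counts, 1.55% of all genes tested rose in WT-labelled and 2.23% in KO-labelled HSCs between conditions. Those that fell numbered 265 (WT) and 345 (KO) of 15143. Of 33 further replication genes 2 rose in WT-labelled and 3 in KO-labelled HSCs between conditions, none fell, and the medians were 0.25 and 0.17. Those in KO-labelled HSCs were led by Atad5, which unloads the clamp (log2 difference 0.74, SE 0.13, adjusted p = 0.0091, limma, 62.9, 58.0 and 59.3 CPM in normal and 99.9 and 100.2 CPM in stressed libraries), with 0.34 (adjusted p = 0.21) in WT-labelled HSCs. The call of Atad5 was lost when either KO-labelled stressed library was left out. Of 35 further nucleotide synthesis genes 1 rose and 1 fell in WT-labelled HSCs and 1 rose in KO-labelled HSCs, with medians of 0.11 and 0.07. Single genes among 35 are near the shares over all genes and are not read as a result about the list. The one that fell was Cad, the enzyme that starts pyrimidine synthesis (log2 difference -0.60, SE 0.10, adjusted p = 0.0084, limma), at 372, 348 and 291 CPM in the WT-labelled normal and 234 and 207 CPM in the WT-labelled stressed libraries, while in KO-labelled HSCs it had 0.01 (adjusted p = 0.98). The call of Cad was lost without WT-labelled stressed library B. Under normal conditions 1 of the 35 was higher under the KO label, the nucleoside diphosphate kinase Nme1 (log2 difference 0.43, SE 0.086, adjusted p = 0.032, limma), with 74.9, 79.7 and 73.7 CPM under the WT label and 104, 100.2 and 103 CPM under the KO label. Nme1 missed the threshold in 13 of 22 alternatives, including each removal of 1 normal or 1 WT-labelled stressed library, the replicate block and the length correction, with adjusted p up to 0.13 and differences of 0.41 to 0.46.

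Of 25 other regulators of the E2F and RB network 5 rose and 2 fell in WT-labelled HSCs, and 6 rose and 2 fell in KO-labelled HSCs. Over all genes tested 1.55% (WT) and 2.23% (KO) rose, and 265 (WT) and 345 (KO) of 15143 fell. Ccna2, the S phase and G2 cyclin, stood at 62.9, 76.4 and 62.2 CPM (WT-labelled) and 56.3, 66.0 and 68.1 CPM (KO-labelled) in the normal libraries, and at 104 and 141 CPM (WT-labelled) and 147 and 148 CPM (KO-labelled) in the stressed libraries. All stressed libraries were above all normal ones, and it rose in WT-labelled (log2 difference 0.86, SE 0.15, adjusted p = 0.0094, limma) and KO-labelled HSCs (log2 difference 1.22, SE 0.15, adjusted p = 0.00086), the former not without WT-labelled stressed library B. E2f7 and E2f8, E2F members that repress, rose in KO-labelled HSCs by 0.99 (adjusted p = 0.0065, limma) and 1.18 (adjusted p = 0.0014), the former not without stressed library B. In WT-labelled HSCs E2f7 also rose, by 0.79 (adjusted p = 0.025, limma), and E2f8 had 0.53 (adjusted p = 0.098). Neither interaction passed the threshold (adjusted p = 0.84 and 0.41). The CDK inhibitors Cdkn1c and Cdkn2c moved in opposite directions in WT-labelled HSCs. Cdkn1c, known for keeping HSCs out of cycle, fell by 1.04 (log2, adjusted p = 0.0076, limma), from 26.3, 30.3 and 33.4 CPM to 14.2 and 14.9 CPM, and Cdkn2c rose by 1.53 (adjusted p = 0.011), from 6.58, 12.4 and 11.3 CPM to 27.1 and 29.3 CPM. Both calls were lost without WT-labelled stressed library A, and that of Cdkn2c also without library B. In KO-labelled HSCs Cdkn1c fell as well, by 0.88 (adjusted p = 0.014, limma), from a mean of 4.78 to a mean of 3.89 (log2 CPM). Cdkn2c had 0.53 there (adjusted p = 0.34), from 16.4, 20.9 and 14.7 CPM to 26.8 and 22.8 CPM, and neither interaction passed the threshold (adjusted p = 0.89 and 0.47). These lists were chosen with earlier results of the same data known.

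**Figure D5:**
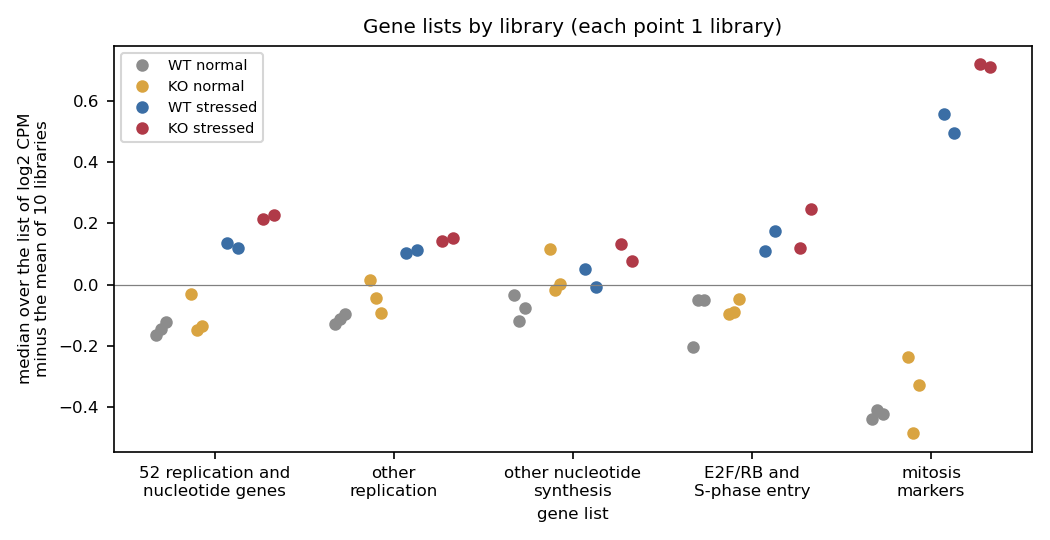
Median deviation (log2) of the members, of the 3 lists of other pathway genes and of the mitosis markers from each gene's mean over the 10 libraries, 1 point for each library in the 4 groups. The mitosis markers show the widest step between normal and stressed libraries, the 52 members a smaller one, and the other nucleotide synthesis genes the smallest.

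The plot of list medians by library places the members between the mitosis markers and the other nucleotide synthesis genes. The mean of the library medians for the members was -0.14 (WT) and -0.10 (KO) in the normal groups and 0.13 (WT) and 0.22 (KO) in the stressed groups. For the mitosis markers it was -0.42, -0.35, 0.53 and 0.72 in the same order. For the other nucleotide synthesis genes it was -0.08, 0.03, 0.02 and 0.11, where the KO-labelled normal group lay above the WT-labelled stressed one.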

How the data were processed

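The authors deposited 1 table of log2 CPM values for 10 libraries and 20270 genes, and its name alone points to limma voom. The submitters' processing notes name Bowtie2, featureCounts and the build mm10, without versions. The same deposited log2 values recur between libraries, and all share a lowest value of -5.90, held by 1342 to 2211 genes a library. The sorted values are thus not identical where genes are tied. The recurring values point to quantile normalization, which ties genes of equal rank and can narrow the spread of abundant genes. Depth was estimated from the steps between tied low values (10 to 100 reads), at 25700000 to 33000000 reads per library.

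Genes with a log2 value above 0 in at least 2 libraries were tested (15143). The 4 group means were estimated over the 10 libraries by limma 3.58.1 (R 4.3.3), leaving 6 residual degrees of freedom and moderating variances along the mean level, with Benjamini-Hochberg adjustment over all genes tested and a threshold of 0.05. Differences are log2 differences of group means with limma's standard error (SE), and rose or fell means past that threshold. Positive differences, groups that do not overlap and medians are descriptions with no test. The model was tested on simulated data. Gene models came from GENCODE vM21 (mm10) and promoters from RefSeq (GRCm38.p6). Near-identical stretches were found with blastn 2.17.0, and plots were drawn with matplotlib 3.10.9 in Python 3.11.15. Members, lists and tests were chosen with earlier results of these data known. The naming rule took every member past the threshold, the 6 with the smallest p in each comparison, the one with the highest mean log2 value in each role, and up to 4 other pathway genes past the threshold per comparison. Mcm4, Mcm5, Gins1, Gins4, Rfc3, Rfc5, Fen1, Ccne1 and any other gene named outside it were chosen after their values were seen. Alternatives changed the moderation, the filter, a pseudocount of 1 CPM, the scaling, weights per library, the libraries in the fit, the threshold, a replicate block and each replicate in turn.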

Additional observations from a re-analysis of the deposited data

How the results depend on the processing

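The alternatives followed the member medians and the genes taken by the naming rule, each in the comparison that named it. None of these differences changed sign under any alternative. Other printed differences were not followed, and those near 0 can change sign. For Mcm2 in WT-labelled HSCs, stressed library A lay below the mean log2 level of the normal libraries and stressed library B above it. For the genes taken by the naming rule, 866 values kept their side of the threshold, 155 lost it and 7 gained it. Rrm2 and Tk1 (WT-labelled) and Rrm1 (KO-labelled) passed it between conditions in all 22 alternatives. Members that rose between conditions numbered 3 (WT) and 2 (KO) with no trend of the variance, 4 and 4 with only the libraries compared, and 12 and 21 at a threshold of 0.1, against 7 and 13. Without KO-labelled normal library A and WT-labelled stressed library A together, chosen after seeing the data, 4 rose in WT-labelled HSCs. Leaving out 1 replicate each gave 3 to 7 (WT) and 1 to 12 (KO). For the genotypes under normal conditions the count was 1 (Mcm2) with a filter above log2 of 2, with library weights or without those 2 libraries, 2 at a threshold of 0.1 and 0 to 1 with 1 replicate left out (Mcm2, or Mcm6 without WT-labelled normal library C), when the median ranged from 0.0086 to 0.060. The replicate letters pair no samples by the labels, and deviations of same-letter libraries correlated between -0.024 and 0.0375. With a replicate block on the letters 6 members rose in KO-labelled HSCs, and 5 in WT-labelled HSCs. Members differing between genotypes under stress or by interaction stayed at 0 in every alternative, with medians of 0.064 to 0.097 and 0.079 to 0.13. The cause of these shifts was not tested.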
